A study of Mus musculus with 79 samples.

Results

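The comparison described here sets DNMT KO embryoid bodies at day 6 against DNMT WT embryoid bodies of the same day, which is 6 of the 79 libraries of the series. The 6 are all the libraries that carry those labels, 3 for each genotype. DNMT KO is a mouse embryonic stem cell (ESC) line with a triple knockout of the DNA methyltransferase genes Dnmt1, Dnmt3a and Dnmt3b, and DNMT WT is its parental line. Both were kept as stem cells in 2i/LIF, a medium that holds ESCs in the naive state, and then differentiated as embryoid bodies (EB), aggregates in which cells of all germ layers can form. Groups used beside them are the same lines at EB D4 (3 DNMT KO and 2 DNMT WT libraries) and EB D8 (3 each), their levels in ESCs (3 and 2) and at EB D2 (2 and 3), and TET KO, a triple knockout of Tet1, Tet2 and Tet3, with its own parental line TET WT at EB D6 (3 each). Each genotype is 1 line, the labels do not say whether a line is 1 clone, and what the knockout did cannot be told apart from how the lines differ otherwise. Whether replicates came from separate cultures is not stated, so the p-values cover the spread among these libraries only, which may be technical.

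Dnmt1 copies methylation of CG sites onto the new strand after replication, and Dnmt3a and Dnmt3b place it on unmethylated DNA. As naive mouse ESCs leave the ground state their genome gains methylation, and methylated promoters of germline genes and of some pluripotency genes are known to stay silent in somatic cells. Mouse embryoid bodies pass through a primitive streak-like stage, from which mesoderm, definitive endoderm, blood and heart precursors arise. Mouse ESCs without any of the 3 enzymes are known to survive and self-renew.

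Levels are RPKM, reads per kilobase of exon scaled to sequencing depth. In the deposited values, a count of 0 appears as the equivalent of 0.9 reads, so a gene at that floor has a value above 0 that depends on its length and on depth. Recovered depth was 10.1 to 10.7 M reads in the DNMT KO libraries and 11.2 to 12.9 M in the DNMT WT libraries. Libraries of 1 genotype correlated at 0.992 to 0.994 across genes, and libraries of different genotype at 0.9002 to 0.9019. Reads of mitochondrial genes made up 1.25% to 1.36% of the DNMT KO libraries and 0.685% to 0.765% of the DNMT WT libraries, and the part of that share in the results was not tested. Changes are DNMT KO minus DNMT WT on the log2(RPKM + 0.5) scale, which understates those of low genes. Calls required an adjusted p under 0.05 (limma, Benjamini-Hochberg over 15267 genes) together with a change of 1 or more in either direction, and "rose" or "fell" is used of called genes only. Library values are given in the order of replicates 1 to 3, and means of day 6 with ± are given with the SD of 3 libraries.

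At day 6, many genes of the stem cell state and of the germline were higher in DNMT KO bodies than in DNMT WT bodies. Many genes of the primitive streak, of cardiac and mesenchymal mesoderm and of axial patterning were lower. Of 15267 genes, 1688 (11.1%) rose and 1050 (6.88%) fell, 17.9% in all, while adjusted p alone would call 65.5%. The median change of all genes was 0.04. The DNMT KO and DNMT WT libraries did not overlap in 71.4% of all genes tested, so absence of overlap alone sets no gene apart here. In none of the called genes named below with values did the libraries of the genotypes overlap, and among genes not called whose levels are given, those of Eef1a1, Klf4, Myl7 and Pcna did. Of the 20 genes of the housekeeping list, 0 were called by limma in the main fit. Eef1a1, a translation elongation factor, had 4506, 4770.1 and 4644 RPKM in the DNMT KO libraries and 4652, 4688 and 4850.1 RPKM in the DNMT WT libraries.

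**Figure D1:**
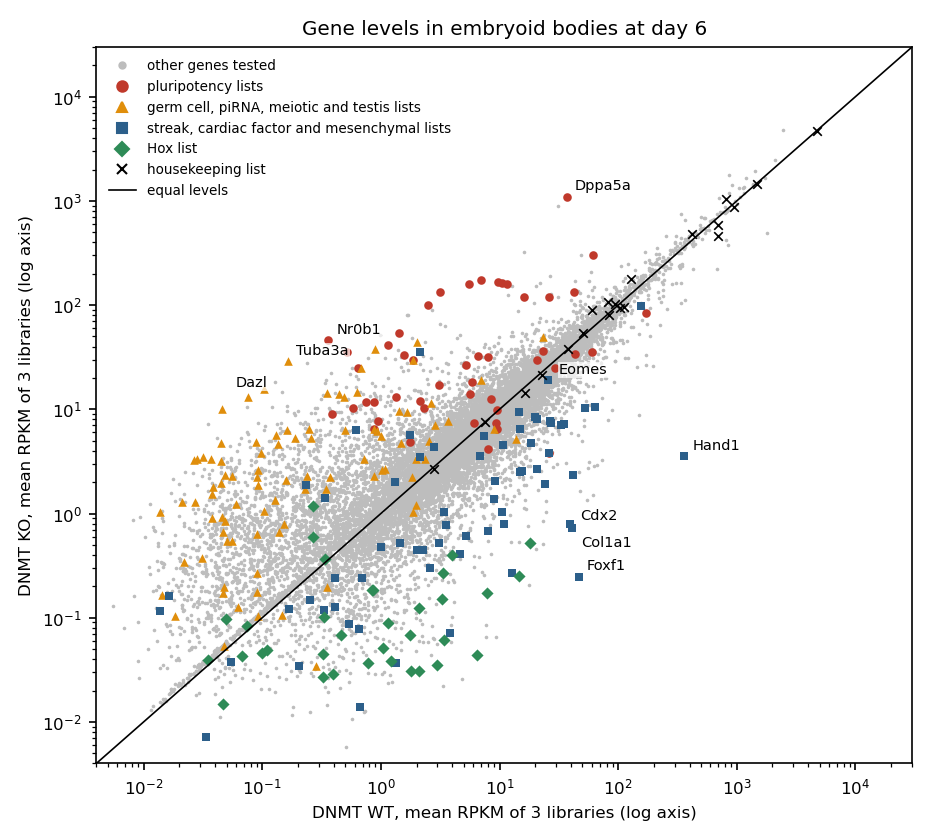
Mean RPKM of the 3 DNMT KO libraries (vertical, log axis) against that of the 3 DNMT WT libraries (horizontal, log axis) for the 15267 genes tested at EB D6, with 5 groups of lists marked. Pluripotency and germline genes lie mostly above the line of equal levels, streak, cardiac, mesenchymal and Hox genes mostly below it, and Hand1 lies far below, at 3.55 RPKM in DNMT KO and 358 in DNMT WT.

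The 3 targeted genes come first. Dnmt1 (ENSMUSG00000004099, GRCm38 chromosome 9:20907209-20959888) had 6.49, 6.05 and 5.42 RPKM in DNMT KO, against 39.8, 41.0 and 39.9 RPKM in DNMT WT. Dnmt3b (ENSMUSG00000027478, chromosome 2:153649450-153687730) had 15.7, 16.7 and 17.4 RPKM in DNMT KO, against 59.1, 59.1 and 65.0 RPKM in DNMT WT. Dnmt3a (ENSMUSG00000020661, chromosome 12:3806007-3914443) had 2.44, 2.54 and 2.28 RPKM in DNMT KO, against 9.41, 9.11 and 8.67 RPKM in DNMT WT. The 3 genes fell, with log2 changes of -2.65, -1.85 and -1.71 (adjusted p = 1.37e-12, 2.64e-11 and 1.93e-10, limma), and no DNMT KO library reached a DNMT WT library. Which exons were deleted is not stated in the labels, so reads of the whole gene do not test the deletion.

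Dnmt3l, a catalytically inactive cofactor that stimulates Dnmt3a and Dnmt3b, went the other way. It had 77.8, 83.0 and 81.3 RPKM in DNMT KO and 1.22, 2.64 and 1.07 RPKM in DNMT WT (log2 change 5.31, SE 0.231, adjusted p = 9.84e-10, limma). In DNMT KO bodies it averaged 167 RPKM at EB D2, 63.5 at EB D4 and 80.7 at EB D6, and in DNMT WT bodies 88.6, 10.7 and 1.65. Zfp57, a zinc finger protein that protects methylation at imprinted regions, rose as well (40.5 ± 2.79 RPKM in DNMT KO, 8.92 ± 1.21 in DNMT WT, SD, n = 3 each). Uhrf1, which brings Dnmt1 to replicated DNA, was not called (99.1 ± 0.664 RPKM in DNMT KO and 60.9 ± 2.56 in DNMT WT, log2 change 0.70). Of the 16 tested genes of methyltransferases and their cofactors, 3 rose and 3 fell (18.75% each), beside 11.1% and 6.88% of all genes. Of 14 tested Tet and demethylation genes, 6 rose and 2 fell. Tet1, which oxidises methylated cytosine, had 17.5, 15.03 and 16.0 RPKM in DNMT KO and 6.26, 6.12 and 5.63 RPKM in DNMT WT.

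Germline genes are shown with their promoter sequence, since many of them start in CG-rich stretches that carry methylation in somatic cells. The 4 windows below belong to genes of the germline lists that rose at EB D6. They are examples that were not drawn at random and do not stand for the lists. Each runs from 250 bases before to 50 bases after the start in RefSeq (GRCm38.p6), 5′ to 3′ on the gene's strand, with every CG in capitals.
Dazl, chr17:50293571-50293870, minus strand: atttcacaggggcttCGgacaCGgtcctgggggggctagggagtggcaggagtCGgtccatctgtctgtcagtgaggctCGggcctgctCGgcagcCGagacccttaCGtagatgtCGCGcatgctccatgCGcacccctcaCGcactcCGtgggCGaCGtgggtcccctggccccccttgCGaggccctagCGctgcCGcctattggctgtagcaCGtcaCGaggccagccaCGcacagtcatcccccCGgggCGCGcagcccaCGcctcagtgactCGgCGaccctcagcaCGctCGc
Hormad1, chr3:95559427-95559726, plus strand: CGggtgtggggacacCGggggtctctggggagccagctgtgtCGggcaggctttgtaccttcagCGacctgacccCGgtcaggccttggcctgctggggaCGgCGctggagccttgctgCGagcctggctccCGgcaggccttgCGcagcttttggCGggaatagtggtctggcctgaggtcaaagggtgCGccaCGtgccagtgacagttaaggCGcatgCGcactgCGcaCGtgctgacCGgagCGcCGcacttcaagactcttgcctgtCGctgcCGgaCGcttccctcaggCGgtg
Fkbp6, chr5:135349995-135350294, minus strand: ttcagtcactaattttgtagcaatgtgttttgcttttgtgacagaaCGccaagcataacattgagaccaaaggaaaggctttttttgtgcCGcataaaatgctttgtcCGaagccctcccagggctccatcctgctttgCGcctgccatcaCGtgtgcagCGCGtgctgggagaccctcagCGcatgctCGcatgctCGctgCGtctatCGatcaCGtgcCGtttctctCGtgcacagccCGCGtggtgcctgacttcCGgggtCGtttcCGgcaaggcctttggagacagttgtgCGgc
Tuba3a, chr6:125286032-125286331, minus strand: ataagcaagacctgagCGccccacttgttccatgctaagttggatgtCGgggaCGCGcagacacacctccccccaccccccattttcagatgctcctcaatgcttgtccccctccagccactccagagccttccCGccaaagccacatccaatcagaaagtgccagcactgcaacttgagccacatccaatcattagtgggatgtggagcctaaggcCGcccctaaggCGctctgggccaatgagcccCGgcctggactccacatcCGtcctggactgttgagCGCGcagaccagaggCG

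These windows hold 28 CG in Dazl, 24 in Hormad1, 21 in Fkbp6 and 12 in Tuba3a. The window of Cyct, a testis-type gene that also rose, is not shown. It holds 8 CG and neither of the 2 motifs given below. Over the germ cell, piRNA, meiotic and testis lists, 62 tested members rose, and the RefSeq table held a window for 54 of them. Their median was 16 CG per 300 bases, with quartiles of 9.25 and 20, so the Dazl, Hormad1 and Fkbp6 windows lie above the upper quartile. The 29 tested members that were not called had windows for 26, with a median of 12 CG. Windows were matched for 11174 of all genes tested (73.2%), with a median of 20 CG. That coverage is under 80%, so a check against all genes is void, for CG number and for the 2 motifs below. The letters CACGTG were present in 13 of the 54 windows (24.1%), in 5 of the 26 (19.23%) and in 10.2% of all matched windows. The letters GGCGGGA, read on both strands, were present in 10 of the 54 (18.5%), in 3 of the 26 (11.5%) and in 21.1% of all matched windows. The 2 motifs do not overlap in letters, and a match says only that the letters occur. CACGTG reads the same on both strands and occurs in the Hormad1 and Fkbp6 windows, and GGCGGGA or its reverse complement TCCCGCC in those of Hormad1 and Tuba3a.

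Dazl, an RNA-binding protein needed for germ cell development, had 13.0, 13.1 and 13.1 RPKM in the DNMT KO libraries, against 0.0210, 0.182 and 0.0233 RPKM in the DNMT WT libraries, where it had 10 reads in all. The change was 4.57 (SE 0.137, adjusted p = 3.55e-11, limma). In DNMT KO it averaged 114 RPKM in ESCs, 12.04 at EB D2 and 7.58 at EB D4, and in DNMT WT 40.9, 2.71 and 0.592. The DNMT KO mean of Dazl was the higher one at each of these days. Sohlh2, a transcription factor of early germ cells, had 15.8, 15.6 and 15.6 RPKM in DNMT KO, against 0.113, 0.164 and 0.0338 RPKM in DNMT WT. Ddx4, a germ cell RNA helicase, had 5.75, 4.71 and 5.41 RPKM in DNMT KO, against 0.0888, 0.334 and 0.354 RPKM in DNMT WT. Dppa3, which guards maternal methylation in the zygote, had 32.7, 27.5 and 29.4 RPKM in DNMT KO, against 1.90, 1.91 and 1.79 RPKM in DNMT WT. Of 17 tested germ cell regulators, 10 rose and 1 fell (Kit, a receptor of germ cell, blood and pigment precursors, at 5.19 ± 0.373 RPKM in DNMT KO and 13.7 ± 0.612 in DNMT WT), with a median change of 1.38. Tfap2c, Ythdc2 and Nanos3 were among the 6 not called. Nanos3, which protects primordial germ cells, had 1.01, 0.726 and 0.642 RPKM in DNMT KO and 0.0869, 0.0837 and 0.289 RPKM in DNMT WT (log2 change 0.99).

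Genes of the piRNA pathway, which silences transposons in the germline, rose in 12 of 19 tested members and fell in 0, with a median change of 2.32. Tex19.1, a transposon restriction factor of germ cells and placenta, had 24.5, 24.5 and 25.2 RPKM in DNMT KO, against 0.620, 0.702 and 0.712 RPKM in DNMT WT. Fkbp6, a co-chaperone needed for piRNA production, had 9.51, 8.75 and 11.7 RPKM in DNMT KO, while the DNMT WT libraries held 1 read of it in all. Gpat2, Tdrd12 and Piwil2 averaged 13.9, 13.1 and 6.31 RPKM in DNMT KO and 0.446, 0.488 and 0.163 RPKM in DNMT WT. Piwil2 is one of the PIWI proteins that bind piRNAs. Of the members not called, Tdrd7, Tdrkh and Pld6 had the highest mean levels, with log2 changes of 0.25, -0.53 and 0.98.

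Of 23 tested genes of meiotic chromosomes, 15 rose and 0 fell, with a median change of 1.36. Hormad1, which marks unsynapsed chromosome axes, had 12.9, 14.2 and 16.2 RPKM in DNMT KO, against 0.516, 0.492 and 0.0514 RPKM in DNMT WT. Smc1b, a meiotic cohesin subunit, had 14.5, 15.5 and 14.2 RPKM in DNMT KO, against 0.617, 0.726 and 0.527 RPKM in DNMT WT. Sycp3, an axis protein of the synaptonemal complex, had 6.41, 6.44 and 6.26 RPKM in DNMT KO, against 0.282, 0.734 and 0.492 RPKM in DNMT WT. Sycp3 was not called at EB D4, at 6.10 RPKM in DNMT KO and 6.65 in DNMT WT (log2 change -0.13). Rec8, the cohesin subunit that replaces Rad21 in meiosis, was not called (3.32 ± 0.652 RPKM in DNMT KO and 1.97 ± 0.186 in DNMT WT, log2 change 0.62).

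The testis-type list, genes mainly known from the male germline, rose in 26 of 34 tested members and fell in 0, with a median change of 2.01. Summed over the list, DNMT KO had 212 RPKM at EB D6, below the 465 RPKM of DNMT WT ESCs. The same order held for the sums of the piRNA (97.0 and 208 RPKM), germ cell (123 and 211 RPKM) and meiotic lists (126 and 129 RPKM). Tuba3a, an alpha-tubulin of the testis, had 25.9, 31.5 and 30.2 RPKM in DNMT KO, against 0.177, 0.256 and 0.0589 RPKM in DNMT WT. Its log2 change of 5.49 (SE 0.162, adjusted p = 3.28e-11, limma) was the second largest rise by the naming rule. Cyct, the testis form of cytochrome c, had 38.0, 38.8 and 37.4 RPKM in DNMT KO, against 0.953, 1.06 and 0.679 RPKM in DNMT WT. Rbmxl2, an RNA-binding protein of spermatocytes that is not on the list, had 49.2, 52.6 and 53.01 RPKM in DNMT KO, against 1.15, 1.16 and 0.664 RPKM in DNMT WT. Rpl10l and Rpl39l, testis forms of ribosomal proteins, averaged 44.5 and 27.9 RPKM in DNMT KO and 2.00 and 0.236 RPKM in DNMT WT. Rpl10l, Rpl39l and Tuba3b have close copies elsewhere in the genome, so how reads were split among the copies leaves their values uncertain. Hsd17b14, a steroid dehydrogenase and also not on the list, had 17.4, 18.8 and 18.1 RPKM in DNMT KO and 9 reads in DNMT WT.

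Of 32 Rhox genes, a cluster of reproductive homeobox genes on the X chromosome, 13 passed the filter on low values and 6 of them rose. Summed over the cluster, levels were 91.3 RPKM in DNMT KO at EB D6 and 230 RPKM in DNMT WT ESCs. Rhox5, the best-known member, had 66.0, 67.4 and 57.3 RPKM in DNMT KO, against 3.31, 3.90 and 3.18 RPKM in DNMT WT. Rhox6 had 13.5, 12.2 and 11.9 RPKM in DNMT KO, against 0.618, 0.230 and 0.0880 RPKM in DNMT WT, and Rhox9 averaged 3.91 RPKM in DNMT KO and 0.246 in DNMT WT. Of 20 tested genes of the 2-cell-like state, a rare ESC state that resembles the early embryo, 7 rose and 0 fell. Zscan4d had 1.23, 1.94 and 1.44 RPKM in DNMT KO and 5 reads in DNMT WT, a low level whose members share sequence. That list gave 16 rises with a pseudocount of 0.1 RPKM and with voom on recovered reads, and 3 with a pseudocount of 1 RPKM. Because some germline members had no read in DNMT WT, their fitted change is set by the pseudocount. With those members at a bound of 3 reads over the group, list medians became 1.39 (germ cell), 3.03 (piRNA), 1.36 (meiotic), 2.23 (testis), 2.18 (Rhox) and 1.63 (2-cell-like).

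Pluripotency genes formed the other large set of rises. In bulk libraries, more cells that express such a gene and more RNA per cell cannot be told apart, and the same holds for every cell type below. Of 16 naive pluripotency genes, 14 rose and 1 fell, with a median change of 3.36. Nr0b1 (ENSMUSG00000025056, chromosome X:86191764-86195947), an orphan nuclear receptor of the ESC network, had 42.5, 47.3 and 48.7 RPKM in DNMT KO, against 0.543, 0.385 and 0.148 RPKM in DNMT WT. Its log2 change of 5.79 (SE 0.212, adjusted p = 2.08e-10, limma) was the largest rise by the naming rule. Zfp42, also known as Rex1, had 131, 131 and 139 RPKM in DNMT KO, against 2.32, 3.37 and 3.69 RPKM in DNMT WT. Esrrb, an orphan nuclear receptor that sustains self-renewal, had 54.7, 53.4 and 54.0 RPKM in DNMT KO, against 1.1803, 1.94 and 1.16 RPKM in DNMT WT. Klf2, a Kruppel-like factor of the naive state, had 169.9, 175 and 175 RPKM in DNMT KO, against 6.33, 7.87 and 6.59 RPKM in DNMT WT. No DNMT WT library came near a DNMT KO library in these 4 genes.

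Klf4, a reprogramming factor of the same family, was the member not called, at 6.51, 7.29 and 8.53 RPKM in DNMT KO and 6.06, 6.65 and 5.72 RPKM in DNMT WT (log2 change 0.25). Tbx3 was the member that fell, at 3.71, 3.92 and 3.79 RPKM in DNMT KO and 27.0, 26.1 and 24.9 RPKM in DNMT WT. Tbx3 serves in naive ESCs and also in heart, limb and yolk sac mesoderm. In DNMT WT it averaged 1.13 RPKM at EB D4. Nanog, chosen for its role after its values were seen, had 115, 119.7 and 123 RPKM in DNMT KO and 16.0, 16.9 and 15.8 RPKM in DNMT WT. At EB D4 it was not called (log2 change -0.15), at 115 RPKM in DNMT KO and 128 in DNMT WT, both above the 60.5 RPKM in DNMT KO and 48.4 in DNMT WT of EB D2. Against its level in ESCs (498 RPKM in DNMT KO, 454 in DNMT WT), Nanog at day 6 was therefore lower in both genotypes. Summed over the naive list, levels were 702 ± 13.1 RPKM in DNMT KO and 72.3 ± 3.44 RPKM in DNMT WT at EB D6 (SD, n = 3 each), and 1849 ± 10.1 RPKM in DNMT KO (n = 3) and 1792 ± 33.0 RPKM in DNMT WT (n = 2) in ESCs. The DNMT KO sum was lower at EB D2 (371 ± 44.2 RPKM, n = 2) than at EB D4 (617 ± 11.9 RPKM, n = 3) and EB D6. The DNMT WT sum was 325 ± 21.7 RPKM at EB D2 (n = 3) and 288 ± 12.7 RPKM at EB D4 (n = 2).

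Of 14 general pluripotency genes, 10 rose and 1 fell, with a median change of 3.34. Sox2, a partner of Pou5f1 in ESCs and later a neural factor, had 172, 163 and 171 RPKM in DNMT KO, against 9.24, 10.2 and 9.90 RPKM in DNMT WT. Dppa2 and Dppa4, partner chromatin proteins of early development, averaged 35.7 ± 2.05 and 99.7 ± 2.30 RPKM in DNMT KO and 0.523 ± 0.185 and 2.51 ± 0.459 RPKM in DNMT WT. Dppa5a, an RNA-binding protein abundant in ESCs, had 1003, 1178 and 1119 RPKM in DNMT KO, against 40.6, 35.0 and 34.6 RPKM in DNMT WT. Pou5f1, chosen after its values were seen, had 294, 304 and 315 RPKM in DNMT KO, against 64.7, 59.0 and 60.1 RPKM in DNMT WT. L1td1 and Utf1, both ESC-associated, averaged 164 and 159 RPKM in DNMT KO and 10.5 and 11.6 RPKM in DNMT WT. Lin28a, which blocks let-7 maturation, fell by a margin at the threshold (84.1 ± 2.07 RPKM in DNMT KO and 171 ± 4.19 in DNMT WT, log2 change -1.01) and was not called without DNMT KO replicate 1 or without DNMT WT replicate 3. Sall4 and Trim71 were not called (log2 changes of -0.73 and -0.23).

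Genes of the formative and primed states, which follow the naive state, rose in 11 of 18 tested members and fell in 0, with a median change of 1.73. Lefty2, a secreted Nodal antagonist, had 154, 161 and 159.7 RPKM in DNMT KO, against 6.29, 4.47 and 5.86 RPKM in DNMT WT. Foxd3, a forkhead factor of epiblast and neural crest, had 11.9, 12.2 and 11.4 RPKM in DNMT KO, against 0.691, 0.765 and 0.803 RPKM in DNMT WT. Sox3 and Grhl2, an epiblast and neural factor and an epithelial factor, averaged 11.9 and 7.79 RPKM in DNMT KO and 2.13 and 0.944 RPKM in DNMT WT. Zic2 and Sox4 were not called (log2 changes of 0.63 and -0.36). Other rises by the naming rule were Lncenc1, a long non-coding RNA of ESCs, and Tdh, threonine dehydrogenase, an enzyme on which mouse ESCs rely. Tdh had 86.5, 89.6 and 93.1 RPKM in DNMT KO, against 2.63, 2.90 and 2.55 RPKM in DNMT WT, and Lncenc1 averaged 80.5 RPKM in DNMT KO and 1.70 in DNMT WT.

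**Figure D2:**
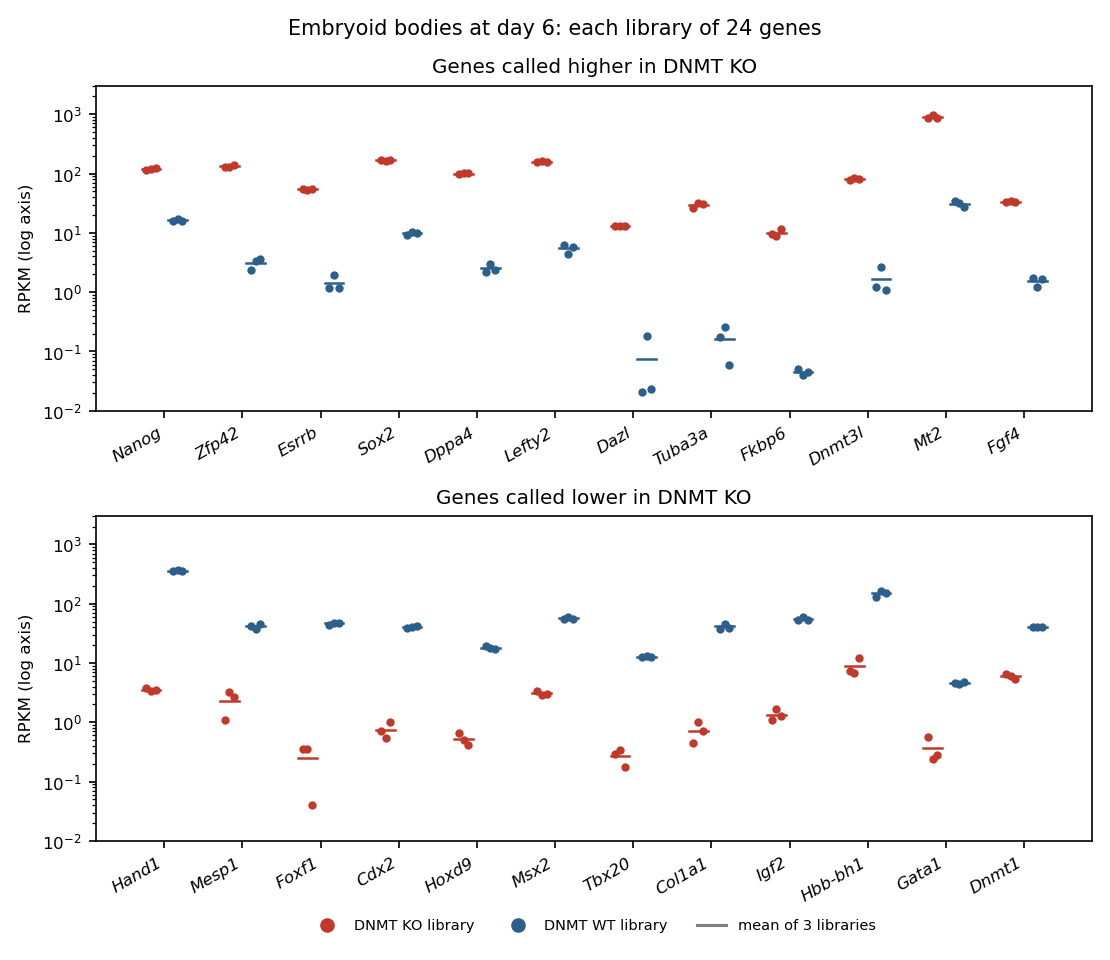
RPKM (log axis) of 24 genes in each of the 3 DNMT KO libraries (left of each pair) and the 3 DNMT WT libraries (right) at EB D6, with the mean as a line. The upper panel holds genes called higher in DNMT KO and the lower panel genes called lower, and in each of the 24 the libraries of the genotypes are apart.

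On the side of differentiation, genes of the primitive streak and early mesoderm fell in 15 of 21 tested members and rose in 2, with a median change of -1.54. Hand1 (ENSMUSG00000037335, chromosome 11:57828705-57832818), a basic helix-loop-helix factor of extraembryonic, lateral and cardiac mesoderm, had 3.73, 3.41 and 3.52 RPKM in DNMT KO, against 349, 375 and 350.3 RPKM in DNMT WT. Its log2 change of -6.47 (SE 0.0481, adjusted p = 4.68e-16, limma) was the largest fall by the naming rule. Mesp1, which marks the earliest cardiovascular mesoderm, had 1.10, 3.23 and 2.64 RPKM in DNMT KO, against 41.4, 37.8 and 45.5 RPKM in DNMT WT. Evx1, a posterior streak homeobox factor, had 2.20, 2.43 and 3.44 RPKM in DNMT KO, against 21.6, 20.7 and 20.1 RPKM in DNMT WT. Members of the list that rose were Lefty1, a Nodal antagonist, and Fgf17, a growth factor of the streak and midbrain. Fgf17 averaged 6.33 ± 1.497 RPKM in DNMT KO and 0.612 ± 0.434 RPKM in DNMT WT.

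The streak genes did not fall evenly. Eomes, a T-box factor of the anterior streak, was not called at day 6, at 17.4, 19.4 and 20.4 RPKM in DNMT KO and 26.6, 25.4 and 25.4 RPKM in DNMT WT (log2 change -0.43, adjusted p = 3.91e-04, limma). At EB D4 Eomes had averaged 3.36 RPKM in DNMT KO and 61.9 RPKM in DNMT WT. Gsc, an organiser homeobox gene, was not called either (3.60 ± 0.643 RPKM in DNMT KO and 6.84 ± 1.70 in DNMT WT), and was at 0.108 RPKM in DNMT KO and 11.9 in DNMT WT at EB D4. T, the Brachyury gene, and Mixl1, both chosen after their values were seen, fell at day 6. T had 5.67, 8.20 and 7.52 RPKM in DNMT KO, against 35.3, 31.6 and 32.5 RPKM in DNMT WT, and Mixl1 had 9.99, 7.69 and 7.80 RPKM in DNMT KO, against 21.5, 18.7 and 20.1 RPKM in DNMT WT. At EB D4 T averaged 1.17 RPKM in DNMT KO and 29.3 in DNMT WT, and at EB D8 1.78 RPKM in DNMT KO and 2.31 in DNMT WT. In DNMT KO these 4 genes had their highest mean of days 4, 6 and 8 at day 6, and in DNMT WT Eomes and Gsc had it at day 4.

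Cardiac transcription factors fell in 9 of 16 tested members and rose in 0, with a median change of -1.94. Hand2, a relative of Hand1, had 0.951, 0.978 and 0.463 RPKM in DNMT KO, against 38.0, 40.5 and 40.2 RPKM in DNMT WT. Tbx20, a T-box factor of the heart, had 0.287, 0.344 and 0.173 RPKM in DNMT KO, against 12.7, 13.1 and 12.4 RPKM in DNMT WT. Tbx2 and Isl1, a chamber repressor and a factor of the second heart field, averaged 0.795 and 0.682 RPKM in DNMT KO and 11.0 and 8.08 RPKM in DNMT WT. The contractile genes showed no such shift at this day. Of 19 tested sarcomere genes, 3 rose (15.8%) and 4 fell (21.1%), with a median change of 0.09, beside 11.1% and 6.88% of all genes. Myl7 and Actc1, contractile proteins of the early heart, were not called (log2 changes of 0.88 and 0.60), at 2.20 and 1.29 RPKM in DNMT WT. Tnnc1, cardiac troponin C, was the exception with the largest fall, at 0.269, 0.460 and 0.855 RPKM in DNMT KO and 14.1, 14.4 and 15.6 RPKM in DNMT WT. Tnnt1, slow skeletal troponin T, rose (2.94 ± 0.392 RPKM in DNMT KO and 0.213 ± 0.0978 in DNMT WT).

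Mesenchymal genes fell in 16 of 31 tested members and rose in 3, with a median change of -1.15. Foxf1, a forkhead factor of lateral plate and extraembryonic mesoderm, had 0.347, 0.357 and 0.0410 RPKM in DNMT KO, against 44.4, 47.6 and 47.2 RPKM in DNMT WT. Col1a1, a chain of type I collagen, had 0.454, 0.993 and 0.723 RPKM in DNMT KO, against 38.1, 46.2 and 39.3 RPKM in DNMT WT. Snai2, a repressor of epithelial genes kept here in the neural crest list, had 0.507, 0.237 and 0.636 RPKM in DNMT KO, against 19.3, 21.1 and 20.5 RPKM in DNMT WT. Cdh11, a mesenchymal cadherin, averaged 1.91 ± 0.285 RPKM in DNMT KO and 24.3 ± 0.491 in DNMT WT. Fn1, fibronectin, was not called (97.4 ± 6.28 RPKM in DNMT KO and 155 ± 0.853 in DNMT WT, log2 change -0.67). Outside the lists, Rgs5, a G protein regulator of pericytes, had 0.963, 0.675 and 0.609 RPKM in DNMT KO, against 37.6, 42.5 and 36.6 RPKM in DNMT WT. Further falls by the naming rule were Pdlim4, Adgra2, Dok4, Spin2c and Cfc1, which lay between 0.511 and 3.27 RPKM in DNMT KO and between 23.4 and 73.2 RPKM in DNMT WT. Adgra2 is an adhesion receptor of the Wnt7 pathway, and Cfc1 a co-receptor of Nodal signalling.

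Hox genes, which set position along the body axis, fell in 17 of 34 tested members and rose in 1. Hoxd9 had 0.654, 0.494 and 0.417 RPKM in DNMT KO, against 19.3, 17.9 and 17.3 RPKM in DNMT WT. Hoxd1 had 0.450, 0.257 and 0.0531 RPKM in DNMT KO, against 14.2, 14.2 and 15.7 RPKM in DNMT WT. Hoxb6 had no read in the 3 DNMT KO libraries and 6.63, 6.81 and 6.02 RPKM (452 reads) in the DNMT WT libraries. Hoxb2 and Hoxb4 averaged 0.174 and 0.0611 RPKM in DNMT KO and 7.83 and 3.37 RPKM in DNMT WT. The member that rose was Hoxc13, chosen after its values were seen, at 1.17 ± 0.349 RPKM in DNMT KO and 0.266 ± 0.0544 RPKM in DNMT WT. The median change of the list was -1.10, and -1.35 with the 7 members that had no read in 1 genotype at a bound of 3 reads. Voom on recovered reads called 26 Hox genes lower. Cdx2, a caudal factor that acts upstream of posterior Hox genes and in trophoblast, had 0.701, 0.551 and 1.01 RPKM in DNMT KO, against 39.03, 40.1 and 42.5 RPKM in DNMT WT (log2 change -5.05, adjusted p = 1.31e-12, limma). Of 8 tested Cdx, Meis and Pbx genes, 6 fell, among them Meis2 (log2 change -1.80). Pitx1, a hindlimb and lateral plate homeobox factor, had 0.175, 0.325 and 0.112 RPKM in DNMT KO, against 17.7, 17.6 and 17.9 RPKM in DNMT WT.

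**Figure D3:**
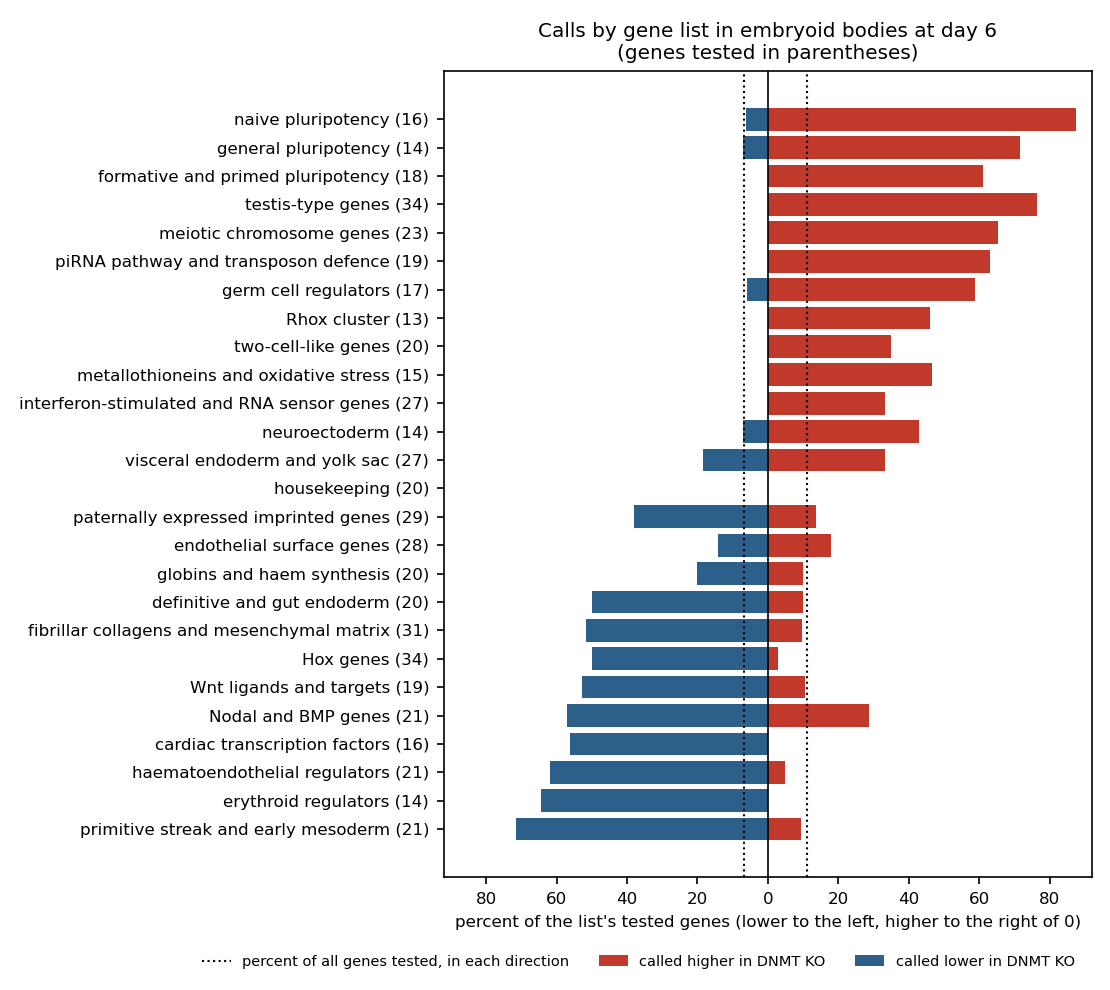
Percent of the tested genes of 26 lists called higher (right) or lower (left) in DNMT KO at EB D6, with the number tested in parentheses and dotted lines at the shares of all genes, 11.1% higher and 6.88% lower. Naive pluripotency reaches 87.5% higher, primitive streak and early mesoderm 71.4% lower, and the housekeeping list has no bar.

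Of 21 tested Nodal and BMP genes, 6 rose and 12 fell. The largest rises were those of Lefty2, Gdf3 and Lefty1, and the largest falls those of the homeobox genes Msx2 and Msx1. Gdf3, a Nodal-related ligand, had 22.6, 25.5 and 26.2 RPKM in DNMT KO, against 0.6996, 0.766 and 0.477 RPKM in DNMT WT. Msx2 had 3.38, 2.89 and 3.05 RPKM in DNMT KO, against 55.5, 58.6 and 56.1 RPKM in DNMT WT. The other members that rose were Nodal, its co-receptor Tdgf1, and Id4. The other members that fell were the ligands Bmp2, Bmp4, Bmp5 and Bmp7, the inhibitors Smad6, Bambi and Nog, and the targets Id1, Id2 and Id3. Of these, chosen after their values were seen, Bmp4 averaged 10.4 ± 1.58 RPKM in DNMT KO and 52.2 ± 2.78 in DNMT WT, Nodal 26.6 ± 1.17 RPKM in DNMT KO and 5.17 ± 0.799 in DNMT WT, and Id3 19.99 ± 0.714 RPKM in DNMT KO and 79.2 ± 2.60 in DNMT WT. Nodal keeps the mouse epiblast from differentiating early, and BMP4 induces posterior and extraembryonic mesoderm.

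Of 19 tested Wnt genes, 2 rose and 10 fell, with a median change of -1.01. Wnt5a, a ligand of elongating mesoderm, had 1.01, 0.980 and 0.910 RPKM in DNMT KO, against 12.8, 12.4 and 11.2 RPKM in DNMT WT, and Wnt3, the ligand that starts streak formation, 2.03, 2.21 and 1.90 RPKM in DNMT KO and 8.41, 9.68 and 9.51 in DNMT WT. Notum, a secreted Wnt inhibitor, rose (11.5 ± 0.786 RPKM in DNMT KO and 2.22 ± 0.323 in DNMT WT). Of 19 tested FGF genes, 4 rose and 5 fell. Fgf4, the ligand of the inner cell mass and ESCs, had 33.5, 34.3 and 32.8 RPKM in DNMT KO, against 1.76, 1.23 and 1.67 RPKM in DNMT WT, while Fgf3 had 1.96, 1.77 and 1.28 RPKM in DNMT KO and 21.1, 20.5 and 22.1 RPKM in DNMT WT. Notch genes (2 of 14 rose, 3 fell) and retinoic acid genes (1 of 14 rose, 2 fell) moved both ways, beside 17.9% called among all genes. Hey1, a Notch target, averaged 2.80 ± 0.401 RPKM in DNMT KO and 14.3 ± 0.973 in DNMT WT, and Cyp26a1, which degrades retinoic acid, 17.7 ± 0.299 RPKM in DNMT KO and 53.6 ± 2.79 in DNMT WT.

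Regulators of the haematoendothelial lineage, the source of blood and vessels, fell in 13 of 21 tested members and rose in 1, with a median change of -1.64. Tal1, the factor that commits mesoderm to blood, had 2.60, 2.60 and 2.26 RPKM in DNMT KO, against 11.3, 12.9 and 13.9 RPKM in DNMT WT. Kdr, the VEGF receptor of haemangioblasts, had 5.09, 4.31 and 4.64 RPKM in DNMT KO, against 20.6, 21.7 and 18.7 RPKM in DNMT WT. Lmo2 and Sox17 averaged 2.14 and 1.43 RPKM in DNMT KO and 10.9 and 9.55 RPKM in DNMT WT. Etv2, an ETS factor upstream of Tal1 and Kdr, was not called (8.73 ± 0.245 RPKM in DNMT KO and 5.93 ± 0.559 in DNMT WT, adjusted p = 0.153, limma). The member that rose was Sox18, an endothelial factor chosen after its values were seen (8.35 ± 1.01 RPKM in DNMT KO and 2.69 ± 0.607 in DNMT WT).

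Erythroid regulators fell in 9 of 14 tested members and rose in 0, with a median change of -1.93. Gata1, the master regulator of red cells, had 0.573, 0.236 and 0.284 RPKM in DNMT KO, against 4.61, 4.47 and 4.85 RPKM in DNMT WT. Klf1, which drives globin genes, averaged 0.434 ± 0.238 RPKM in DNMT KO and 3.99 ± 0.0363 in DNMT WT. The globins moved in both directions. Hbb-bh1, the embryonic beta-type globin of primitive red cells, had 7.45, 6.88 and 12.3 RPKM in DNMT KO, against 130.4, 165 and 153 RPKM in DNMT WT. Hbb-y, the other embryonic beta-type globin, rose, at 14.6, 15.6 and 16.7 RPKM in DNMT KO and 5.07, 3.91 and 4.78 RPKM in DNMT WT. Hba-a1 averaged 0.737 RPKM in DNMT KO and 4.67 in DNMT WT, and it shares nearly all its sequence with Hba-a2, so its value is uncertain. Of 20 tested globin and haem genes, 2 rose (10%) and 4 fell (20%), and of 24 red cell membrane genes, 3 rose (12.5%) and 5 fell (20.8%). Among all genes, 11.1% rose and 6.88% fell.

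Blood lineage genes (3 of 23 rose, 5 fell) and endothelial surface genes (5 of 28 rose, 4 fell) moved both ways. In the blood lineage list 13.0% rose and 21.7% fell, and in the endothelial list 17.9% and 14.3%. Of all genes tested, 11.1% rose and 6.88% fell. Runx1, needed for definitive blood, averaged 0.366 ± 0.134 RPKM in DNMT KO and 2.30 ± 0.124 in DNMT WT, and Itga2b, the CD41 integrin of early blood cells, 0.805 ± 0.196 RPKM in DNMT KO and 2.95 ± 0.254 in DNMT WT, and both fell. Aplnr, the apelin receptor of lateral mesoderm, had 2.49, 2.95 and 2.89 RPKM in DNMT KO, against 28.5, 28.1 and 28.2 RPKM in DNMT WT. Cldn5, a tight junction protein of endothelium, rose, at 4.47, 5.96 and 4.75 RPKM in DNMT KO and 0.0630, 0.601 and 0.188 RPKM in DNMT WT, and so did Robo4 (3.51 ± 0.272 RPKM in DNMT KO and 0.103 ± 0.0422 in DNMT WT). Of the endothelial markers Pecam1, Cdh5, Kdr and Tek, Kdr fell, as given above, and Tek is not reported here. Cdh5, a cadherin, averaged 5.53 ± 0.183 RPKM in DNMT KO and 10.3 ± 0.712 in DNMT WT. Pecam1, an adhesion molecule, averaged 7.96 ± 0.381 RPKM in DNMT KO and 5.73 ± 0.290 in DNMT WT. Neither Cdh5 nor Pecam1 was called.

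Definitive and gut endoderm genes fell in 10 of 20 tested members and rose in 2. Foxa2, the pioneer factor of endoderm and notochord, had 1.34, 1.46 and 1.34 RPKM in DNMT KO, against 9.07, 8.68 and 9.23 RPKM in DNMT WT. Gata6, an endoderm and heart factor, averaged 2.53 ± 0.234 RPKM in DNMT KO and 14.95 ± 0.254 in DNMT WT. Trh, thyrotropin-releasing hormone, rose, at 293, 298 and 316 RPKM in DNMT KO and 47.0, 50.3 and 48.6 RPKM in DNMT WT. Visceral endoderm and yolk sac genes went both ways (9 of 27 rose, 5 fell). Cubn, the endocytic receptor cubilin, had 5.14, 4.16 and 4.42 RPKM in DNMT KO, against 0.609, 0.663 and 0.577 RPKM in DNMT WT, and Apoa2, an apolipoprotein, averaged 5.23 RPKM in DNMT KO and 0.256 in DNMT WT. Car4, a membrane carbonic anhydrase, fell, at 25.02, 28.2 and 25.6 RPKM in DNMT KO and 185, 196 and 207 RPKM in DNMT WT. Rbp4 and Apoe were not called (log2 changes of -0.12 and 0.58).

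Neuroectoderm genes rose in 6 of 14 tested members and fell in 1, and 14 of the list's 28 genes did not pass the filter on low values. Sox1, the earliest marker of the neural plate, had 3.34, 2.88 and 3.09 RPKM in DNMT KO, against 0.0166, 0.0800 and 0.0552 RPKM in DNMT WT. Tubb3, the neuronal beta-tubulin, had 25.9, 26.7 and 30.7 RPKM in DNMT KO, against 3.44, 3.60 and 3.62 RPKM in DNMT WT. In ESCs Tubb3 averaged 108 RPKM in DNMT KO and 103 RPKM in DNMT WT. Irx3 fell (1.41 ± 0.278 RPKM in DNMT KO and 10.6 ± 0.750 in DNMT WT), and Nes was not called (log2 change 0.72). Trophoblast genes rose in 6 of 15 tested members and fell in 4. Plet1 and Plac8, named for placental expression, averaged 7.43 ± 0.953 and 6.68 ± 0.986 RPKM in DNMT KO and 1.36 ± 0.234 and 1.11 ± 0.212 RPKM in DNMT WT, while the members with the largest falls were Hand1 and Cdx2.

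Imprinted genes, whose parental alleles differ in methylation, were read as totals of both alleles. Of 29 tested paternally expressed genes, 11 fell (37.9%) and 4 rose (13.8%), and of 23 tested maternally expressed genes, 4 fell (17.4%) and 3 rose (13.0%). Among all genes, 6.88% fell and 11.1% rose. Igf2, a fetal growth factor, had 1.07, 1.69 and 1.26 RPKM in DNMT KO, against 53.5, 58.6 and 53.1 RPKM in DNMT WT (log2 change -4.93, adjusted p = 2.18e-12, limma). H19, the maternally expressed RNA beside Igf2, also fell, at 505, 484 and 496 RPKM in DNMT KO and 1780.2, 1771 and 1833 RPKM in DNMT WT. At EB D4 the same RNA had been higher in DNMT KO, at 379 RPKM in DNMT KO and 54.7 in DNMT WT, and at EB D8 the means were 1889.9 RPKM in DNMT KO and 2324 in DNMT WT. Peg3, a zinc finger protein of mesoderm and placenta, had 35.9, 31.8 and 32.8 RPKM in DNMT KO, against 169, 177 and 166 RPKM in DNMT WT. Dlk1 and Usp29 averaged 0.968 and 0.436 RPKM in DNMT KO and 5.16 and 3.83 RPKM in DNMT WT. Jade1, a chromatin reader paternally expressed in placenta, rose (27.6 ± 0.808 RPKM in DNMT KO and 4.76 ± 0.246 in DNMT WT), and so did Cdkn1c, a cell cycle inhibitor expressed from the maternal allele (13.3 ± 0.763 RPKM in DNMT KO and 4.99 ± 0.392 in DNMT WT). Snrpn and Meg3 were not called (log2 changes of 0.32 and -0.10).

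Of 15 tested metallothionein and oxidative stress genes, 7 rose and 0 fell. Mt2, which binds zinc and other metals, had 882, 972 and 854 RPKM in DNMT KO, against 34.0, 32.1 and 27.1 RPKM in DNMT WT. Mt1 had 318, 326 and 322 RPKM in DNMT KO, against 13.0, 17.7 and 17.8 RPKM in DNMT WT. Both were also abundant in ESCs, with Mt2 at 719.9 RPKM in DNMT KO and 566 RPKM in DNMT WT. Nqo1, a quinone reductase of the oxidative stress response, averaged 10.8 ± 0.298 RPKM in DNMT KO and 0.588 ± 0.231 in DNMT WT. Of 27 tested interferon-stimulated and RNA sensor genes, 9 rose and 0 fell (15 rose with voom). Ifitm3, an antiviral membrane protein also known from primordial germ cells, had 154, 159 and 178 RPKM in DNMT KO, against 16.7, 24.4 and 24.5 RPKM in DNMT WT. Ddx58, which encodes the RNA sensor RIG-I, had 5.27, 5.40 and 4.94 RPKM in DNMT KO, against 0.506, 0.823 and 0.593 RPKM in DNMT WT, and Isg15, a ubiquitin-like protein, averaged 2.63 ± 0.247 RPKM in DNMT KO and 0.231 ± 0.126 in DNMT WT. MHC class I genes rose in 2 of 14 tested members (14.3%) and fell in 0, beside 11.1% higher among all genes.

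Of 23 p53 target genes, 5 rose and 0 fell. Cdkn1a, the p21 inhibitor, had 31.6, 31.8 and 34.6 RPKM in DNMT KO, against 13.4, 12.8 and 11.6 RPKM in DNMT WT. Bax, Ccng1 and Pmaip1 were not called (log2 changes of 0.68, 0.56 and 0.83). Of 22 cell cycle genes, 6 rose (27.3%) and 1 fell (4.55%), beside 11.1% and 6.88% of all genes. Cdkn2a, which encodes the p16 and p19 inhibitors, had 25.8, 28.4 and 28.3 RPKM in DNMT KO, against 3.88, 3.83 and 3.41 RPKM in DNMT WT, and Cdkn2b averaged 5.66 ± 1.21 RPKM in DNMT KO and 0.497 ± 0.206 in DNMT WT. Ccne1, cyclin E, rose (50.01 ± 1.77 RPKM in DNMT KO and 16.4 ± 1.08 in DNMT WT), and Ccnd2, cyclin D2, was the member that fell (2.103 ± 0.305 RPKM in DNMT KO and 12.3 ± 0.843 in DNMT WT). Pcna, the replication clamp, was not called (124 ± 3.03 RPKM in DNMT KO and 116 ± 4.05 in DNMT WT, log2 change 0.09). Glycolysis genes rose in 3 and fell in 2 of 20 (15% and 10%), beside 11.1% and 6.88% of all genes.

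The 13 mitochondrially encoded genes had a median change of 0.86, of which 2 were called. mt-Co1, a subunit of cytochrome oxidase, had 4732, 5103 and 4684 RPKM in DNMT KO and 2642, 2374 and 2279 RPKM in DNMT WT, a log2 change of 0.99, just under the size threshold. The called members mt-Atp8 and mt-Atp6 overlap in the mitochondrial genome. mt-Atp8 had 24.2, 1.41 and 1.94 RPKM in DNMT KO and 0.394, 0.341 and 0.436 RPKM in DNMT WT, with replicate 1 far above the other DNMT KO libraries, and mt-Atp6 was not called without that library (log2 change 0.65). Among Y-linked genes 3 of 4 tested fell. Eif2s3y, a translation factor subunit, had 1.14, 1.34 and 1.64 RPKM in DNMT KO, against 11.3, 12.2 and 11.5 RPKM in DNMT WT, and its means in ESCs were 3.08 RPKM in DNMT KO and 13.5 in DNMT WT. The mean of Eif2s3y was thus lower in the DNMT KO line before differentiation too, and the part of this line difference in the results above was not tested. By chromosome, 16.5% of 571 tested X-linked genes rose and 11.6% fell.

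Day 6 was then set against day 4 in a test of the difference between the knockout effects, with no library shared between the days. At EB D4, 5.95% of genes were called (703 higher, 4.60%, and 206 lower, 1.35%). Of the 1688 genes that rose at day 6, 521 had risen at EB D4, which is 30.9% of the day 6 genes and 74.1% of the EB D4 genes. Of the 1050 that fell at day 6, 102 had fallen at EB D4 (9.71% of the day 6 genes, 49.5% of the EB D4 genes), and 48 had been higher there. The effect became more positive from EB D4 to EB D6 in 1030 genes (6.75%) and more negative in 835 (5.47%), 12.2% in all.

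Pluripotency genes account for several of the largest positive differences. L1td1 averaged 213 RPKM in DNMT KO and 189.6 in DNMT WT at EB D4, and 164 RPKM in DNMT KO and 10.5 in DNMT WT at EB D6 (difference 3.74, adjusted p = 5.89e-12, limma). Utf1 averaged 203 RPKM in DNMT KO and 189 in DNMT WT at EB D4, and 159 RPKM in DNMT KO and 11.6 in DNMT WT at EB D6. Neither gene was called at EB D4 (log2 changes of 0.17 and 0.10). Of 18 formative and primed genes, 1 was called higher and 3 lower at EB D4, and the effect became more positive in 14. Wnt8a, a Wnt ligand of the streak, and Eomes also had large positive differences. Wnt8a averaged 1.17 RPKM in DNMT KO and 22.6 in DNMT WT at EB D4, and 2.70 RPKM in DNMT KO and 1.80 in DNMT WT at EB D6. In 12 of 21 streak genes the call at EB D4 was lower, and in 0 higher.

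The negative differences included blood and vessel genes that had been higher in DNMT KO at EB D4. Hbb-bh1 averaged 45.6 RPKM in DNMT KO and 5.77 in DNMT WT at EB D4, and 8.86 RPKM in DNMT KO and 149.6 in DNMT WT at EB D6 (difference -6.93, adjusted p = 8.94e-09, limma). Hba-x, the embryonic alpha-type globin, averaged 41.3 RPKM in DNMT KO and 1.92 in DNMT WT at EB D4, and 9.33 RPKM in DNMT KO and 25.9 in DNMT WT at EB D6. Tal1 averaged 3.09 RPKM in DNMT KO and 0.299 in DNMT WT at EB D4, and Kdr 2.92 RPKM in DNMT KO and 0.295 in DNMT WT. Of 21 haematoendothelial regulators, 9 were called higher in DNMT KO and 0 lower at EB D4, against 1 and 13 at day 6, and the effect became more negative in 17. Erythroid regulators were called higher in 5 and lower in 0 of 14 at EB D4. Endothelial surface genes were called higher in 14 and lower in 1 of 28 at EB D4. Hand1, Foxf1 and Adgra2 also had large negative differences, with Hand1 at 0.656 RPKM in DNMT KO and 0.0887 RPKM in DNMT WT at EB D4. The difference of -7.43 for Hand1 goes with its level of 358 RPKM in DNMT WT at day 6.

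**Figure D4:**
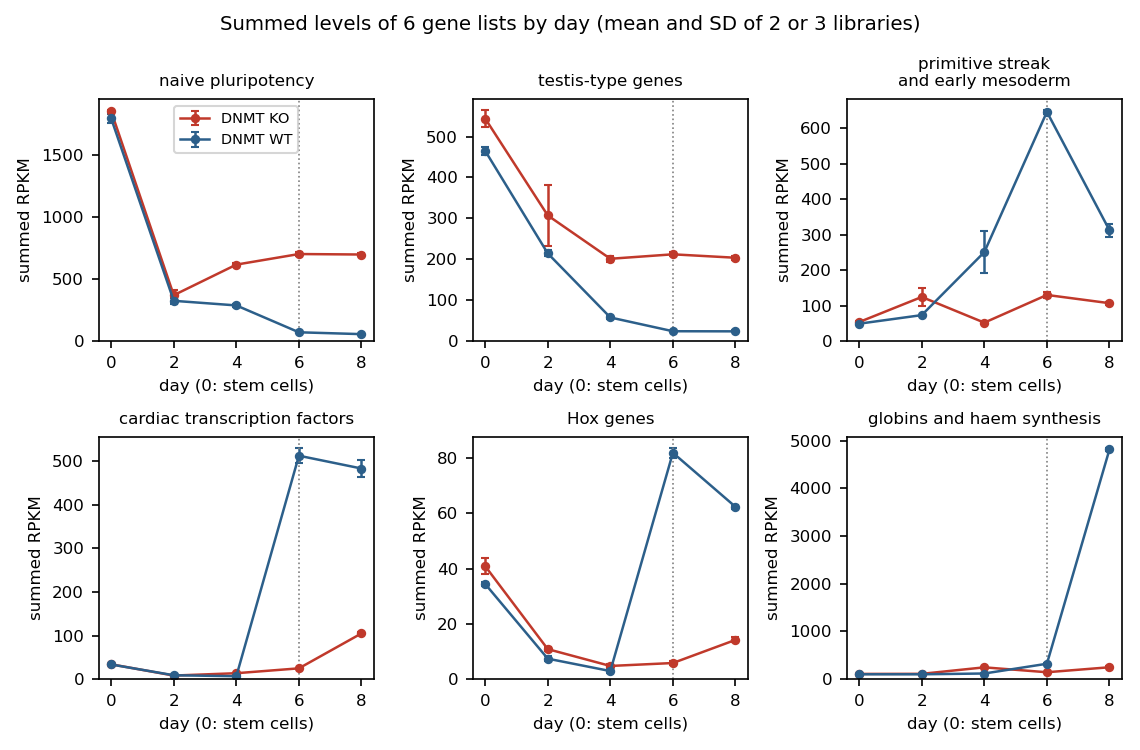
Summed RPKM of 6 lists in DNMT KO and DNMT WT in stem cells (day 0) and at days 2, 4, 6 and 8 of embryoid bodies, as mean and SD of 2 or 3 libraries, with a dotted line at day 6. At day 6 the naive and testis-type sums were higher in DNMT KO (702 ± 13.1 and 212 ± 4.76) than in DNMT WT (72.3 ± 3.44 and 24.5 ± 0.570), the other 4 sums were lower, and the globin sum of DNMT WT reached 4816 ± 29.5 at day 8.

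Sums of a list weigh its most abundant genes. Hand1, which belongs to the streak, cardiac factor and trophoblast lists, made up 358 of the 646 ± 6.16 RPKM summed over the streak list and of the 513 ± 17.5 RPKM summed over the cardiac list in DNMT WT at day 6. The Hox sum, which does not hold Hand1, was 5.81 ± 0.668 RPKM in DNMT KO and 81.9 ± 1.75 RPKM in DNMT WT (SD, n = 3 each). In DNMT KO the Hox sum was 14.2 ± 0.931 RPKM at EB D8.

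From day 6 to day 8 the set of genes apart was largely shared. At EB D8, 18.9% of genes were called (1490 higher, 9.76%, and 1391 lower, 9.11%). Of the genes that rose at day 6, 1184 rose at EB D8 too (70.1% of the day 6 genes, 79.5% of the EB D8 genes), and of those that fell, 696 did (66.3% and 50.04%). The effect was more positive at day 6 than at day 8 in 692 genes (4.53%) and more negative in 284 (1.86%), 6.39% in all.

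Genes more negative at day 6 included streak genes that were low in DNMT WT at day 8. Mesp1 averaged 2.32 RPKM in DNMT KO and 41.6 in DNMT WT at EB D6, and 1.001 RPKM in DNMT KO and 1.69 in DNMT WT at EB D8 (difference -3.48, adjusted p = 2.03e-05, limma). Hand1 averaged 31.7 RPKM in DNMT KO and 244 in DNMT WT at EB D8, and was therefore closer between the genotypes than at day 6. Hand2 averaged 28.7 RPKM in DNMT KO and 99.6 in DNMT WT at EB D8, after 0.797 RPKM in DNMT KO and 39.6 in DNMT WT at EB D6. Of 21 streak genes, 3 were called higher and 4 lower at EB D8, and the effect was more negative at day 6 in 14. Prl4a1, a placental prolactin-family hormone, had 40 reads in the 3 DNMT KO libraries and 0 in the DNMT WT libraries at EB D6, and averaged 24.6 RPKM in DNMT KO and 0.269 in DNMT WT at EB D8. Genes of that family have close copies, which leaves single values uncertain.

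Among the largest positive differences were genes of maturing tissue that were lower in DNMT KO at day 8. Col3a1, a fibrillar collagen, averaged 0.238 RPKM in DNMT KO and 0.411 in DNMT WT at EB D6, and 0.882 RPKM in DNMT KO and 48.3 in DNMT WT at EB D8 (difference 4.84, adjusted p = 3.08e-10, limma). Actc1 averaged 2.13 RPKM in DNMT KO and 1.29 in DNMT WT at EB D6, and 1.49 RPKM in DNMT KO and 37.7 in DNMT WT at EB D8. Hbb-y averaged 36.5 RPKM in DNMT KO and 342 in DNMT WT at EB D8, the reverse of its order at day 6, and Hbb-bh1 59.8 RPKM in DNMT KO and 3060.2 in DNMT WT. Of 19 sarcomere genes, 2 were called higher and 13 lower at EB D8, and the effect was more positive at day 6 in 12. Visceral endoderm genes were called higher in 3 and lower in 13 of 27 at EB D8, and were more positive at day 6 in 16.

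The TET KO comparison at the same day asks whether bodies without the oxidising enzymes differ from their parental line in the same genes. At EB D6, 5.02% of genes were called between TET KO and TET WT (494 higher, 3.24%, and 272 lower, 1.78%). Of the 1688 genes that rose in DNMT KO, 174 rose in TET KO (10.3% of the DNMT genes, 35.2% of the TET genes), and of the 1050 that fell, 98 did (9.33% and 36.0%). In the opposite direction, 44 of the genes that rose in DNMT KO were called lower in TET KO, and 49 of those that fell were called higher. The DNMT effect was more positive than the TET effect in 1634 genes (10.7%) and more negative in 1495 (9.79%), 20.5% in all.

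Naive pluripotency genes differed between the knockouts, with 14 of 16 called higher in DNMT KO and 0 in TET KO, with 1 lower in each, and the DNMT effect was more positive in 13 of 16. Nr0b1 averaged 0.247 RPKM in TET KO and 0.665 RPKM in TET WT (difference of the effects 6.43, adjusted p = 4.09e-09, limma). Tdh averaged 2.44 RPKM in TET KO and 4.49 in TET WT, and Lefty2 1.92 RPKM in TET KO and 4.47 in TET WT. Cyct, the testis cytochrome, averaged 0.308 RPKM in TET KO and 2.25 RPKM in TET WT, and so went the other way there. Germline lists did rise in part in TET KO, with 10 of 19 piRNA genes, 12 of 23 meiotic genes and 10 of 34 testis-type genes called higher, the last with 2 called lower. Germ cell regulators were called higher in 3 of 17 and lower in 1 in TET KO, Rhox genes higher in 2 of 13, and 2-cell-like genes higher in 10 of 20. Tex19.1 averaged 9.81 RPKM in TET KO and 0.371 RPKM in TET WT, and Ddx4 8.02 RPKM in TET KO and 0.190 in TET WT. For Dazl the means were 1.10 RPKM in TET KO and 0.103 in TET WT, and for Fkbp6 0.150 RPKM in TET KO and 0.0499 in TET WT.

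Hox genes went in opposite directions in the knockouts. Of 34 tested, 17 fell and 1 rose in DNMT KO, while 16 rose and 0 fell in TET KO, and the DNMT effect was more negative in 26. Hoxd9 averaged 7.50 RPKM in TET KO and 2.85 RPKM in TET WT (difference of the effects -5.45, adjusted p = 8.69e-12, limma). Cdx2 averaged 54.4 RPKM in TET KO and 19.24 RPKM in TET WT, and Pitx1 9.38 RPKM in TET KO and 4.56 in TET WT. Tgfb2, a growth factor of mesenchyme and heart, averaged 19.9 RPKM in TET KO and 0.775 RPKM in TET WT, against 0.273 RPKM in DNMT KO and 7.14 RPKM in DNMT WT. The parental lines had unlike levels, with Hoxd9, Cdx2, Pitx1 and Tgfb2 higher in DNMT WT than in TET WT. The TET KO means of Hoxd9 and Pitx1 stayed below the DNMT WT levels. The part of these parental levels in the opposite directions was not tested. Erythroid regulators fell in both, in 9 of 14 in DNMT KO and 7 of 14 in TET KO. Hbb-bh1 averaged 0.424 RPKM in TET KO and 32.4 RPKM in TET WT. Cardiac transcription factors fell in 9 of 16 in DNMT KO and in 1 of 16 in TET KO.

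**Figure D5:**
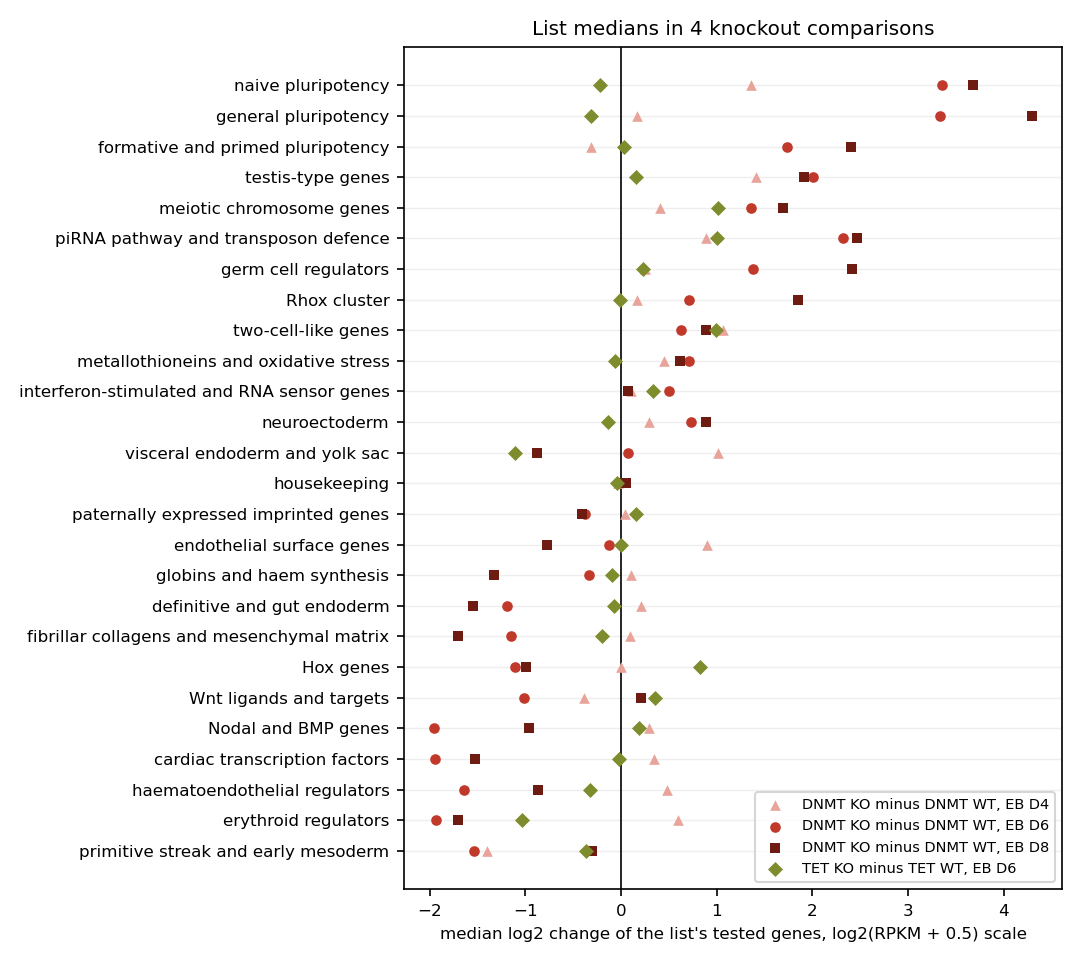
Median log2 change of the tested genes of 26 lists (log2(RPKM + 0.5) scale) in 4 comparisons, which are DNMT KO minus DNMT WT at EB D4, EB D6 and EB D8 and TET KO minus TET WT at EB D6. For Hox genes the medians were -1.10 in DNMT KO and 0.83 in TET KO at EB D6, and for haematoendothelial regulators the median was 0.48 at EB D4 and -1.64 at EB D6.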

How the data were processed

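RNA was measured by stranded sequencing of poly(A) RNA, per the labels' protocols. The authors deposited 1 table of log2 RPKM per gene. Per the submitters' processing notes, reads were handled with Trim Galore 0.6.1, cutadapt 1.18 and HISAT2 2.1.0 against GRCm38, and neither labels nor headers name the counting tool and annotation. In the deposited values a gene without a read carries 0.9 reads. Reads were recovered with GENCODE M21 exon lengths (97.12% of values between 1 and 100 reads were whole within 0.1). Each gene identifier was used once, so repeated entries of an identifier (39 of 35269) were dropped and 35230 genes remained. The main test was limma 3.58.1 (R 4.3.3) on log2(RPKM + 0.5), with trend and robust, fitted on the 12 EB D6 libraries of 4 genotypes, which share 1 estimate of the spread, over 15267 genes that reach 1 RPKM in 2 or more of the 79 libraries. Differences between days were fitted on DNMT libraries of both days. Calls need an adjusted p under 0.05 (Benjamini-Hochberg) and a log2 change of at least 1. 1 DNMT WT column of another condition matched only its group and entered the filter alone. Alternatives for the day 6 comparison covered the pseudocount, filter, scaling, voom on recovered reads, a replicate block and leaving out each of the 6 DNMT libraries at EB D6. The differences between days were rerun with a pseudocount of 0.1, centring, the block and those 6 libraries left out in turn, and no EB D4, EB D8 or TET library was left out. Scripts were tested on simulated data, with pandas 2.3.3 and numpy 2.4.6 in Python 3.11.15.

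The members and gene lists were chosen with earlier results of these data known. Named genes are the targeted genes, the 15 largest called rises and falls with a group of at least 5 RPKM and no overlap, up to 5 called and 3 uncalled members per list, and the 5 most positive and negative differences per comparison. Bmp4, Cdh5, Hoxc13, Id3, Kit, Lin28a, Mixl1, Nanog, Nodal, Pecam1, Pou5f1, Sox18, T and Tbx3, and other members listed without values, were chosen after their values were seen. A few genes that meet the rule are not reported here.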

Additional observations from a re-analysis of the deposited data

Results flagged for a closer look

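Genes are given here whose knockout effect at EB D6 differed most from that at EB D8, at EB D4 or in TET KO, each by limma's test of the difference itself with Benjamini-Hochberg adjustment. Values are differences of log2 changes, EB D6 minus the other day or DNMT minus TET.

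Against EB D8, the most positive differences were those of Nepn (6.23, adjusted p = 1.22e-09), Hba-a2 (5.67, adjusted p = 1.02e-10), Hbb-y (4.90, adjusted p = 1.97e-09), Actc1 (4.86, adjusted p = 3.40e-07) and Col3a1 (4.84, adjusted p = 3.08e-10). Hba-a2 had 1 read in each genotype at EB D6, so its difference comes from EB D8, where it averaged 0.1201 RPKM in DNMT KO and 30.4 RPKM in DNMT WT. Nepn, a matrix proteoglycan of gut endoderm, averaged 0.0778 RPKM in DNMT KO and 0.472 in DNMT WT at EB D6, and 0.0737 RPKM in DNMT KO and 70.4 in DNMT WT at EB D8. The most negative were those of Hand1 (-3.55, adjusted p = 4.41e-11), Mesp1 (-3.48, adjusted p = 2.03e-05), Prl7b1 (-3.36, adjusted p = 1.22e-04), Prl4a1 (-3.33, adjusted p = 3.69e-07) and Alox15 (-3.20, adjusted p = 1.96e-06). Prl7b1 and Prl4a1 had no read in DNMT WT at EB D6, so the size of their differences depends on the pseudocount.

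Against EB D4, the most positive differences were those of Wnt8a (4.28, adjusted p = 1.64e-07), Platr10 (3.91, adjusted p = 4.56e-08), L1td1 (3.74, adjusted p = 5.89e-12), Utf1 (3.62, adjusted p = 3.41e-09) and Eomes (3.58, adjusted p = 6.03e-09). The most negative were those of Hand1 (-7.43, adjusted p = 1.50e-10), Hbb-bh1 (-6.93, adjusted p = 8.94e-09), Foxf1 (-5.90, adjusted p = 1.12e-08), Adgra2 (-5.78, adjusted p = 1.40e-09) and Hba-x (-5.58, adjusted p = 4.40e-08). In Hbb-bh1 and Hba-x the DNMT KO mean was the higher one at EB D4 and the lower one at EB D6.

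Against TET KO at EB D6, the most positive differences were those of Cyct (6.59, adjusted p = 7.85e-09), Nr0b1 (6.43, adjusted p = 4.09e-09), Lefty2 (5.74, adjusted p = 3.79e-10), Srgn (5.64, adjusted p = 3.69e-11) and Tdh (5.58, adjusted p = 7.75e-13). Srgn, a proteoglycan of secretory granules, averaged 8.78 RPKM in DNMT KO and 0.897 in DNMT WT, and 0.118 RPKM in TET KO and 4.10 in TET WT. The most negative were those of Tgfb2 (-7.32, adjusted p = 1.29e-11), Cdx2 (-6.53, adjusted p = 8.52e-12), Pitx1 (-5.68, adjusted p = 1.92e-10), Hoxd9 (-5.45, adjusted p = 8.69e-12) and Hand2 (-5.36, adjusted p = 2.63e-10). In each of these 5 genes the mean of DNMT KO was below that of DNMT WT and the mean of TET KO above that of TET WT.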

How the results depend on the processing

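Depth and the pseudocount limit low genes, since a gene without a read has a fitted change set by the 0.5 RPKM added, and effects of the line cannot be told apart from those of the knockout. Against 1688 genes higher and 1050 lower, calls by adjusted p alone (limma) were 5275 and 4720. A pseudocount of 0.1 gave 2341 and 1437, one of 1 gave 1236 and 819, and voom on recovered reads 2508 and 1520. Without the filter on low values there were 1711 and 1057 calls of 35230 genes, with the filter taken from the EB D6 libraries 1525 and 1023 of 12990, and with the 6 DNMT libraries alone 1686 and 1050. Centring each library on its median gave 1620 and 1140, and quantile normalization 1428 and 1303. Leaving out 1 library at a time gave 1687 to 1712 higher and 1048 to 1084 lower. The number of genes more negative at EB D6 than at EB D8 was 442 with a pseudocount of 0.1, against 284. No named gene that was called changed direction under the alternatives run for it, whereas the small median change of all genes, 0.04, became -0.05 under quantile normalization. List medians depended more on the processing. Of the 47 lists, the median counted as moved in 35 with voom, 35 with quantile normalization, 31 with a pseudocount of 0.1 and 30 with one of 1. The medians given above are those of the main fit. Of the list counts over all alternatives, 59 moved and 1069 did not. With centring, the median difference of all genes was -0.05 in place of 0.02 for EB D6 minus EB D8, and 0.06 in place of -0.01 for DNMT minus TET. Replicate numbers were not used to pair the libraries, since the labels do not say that equal numbers share a culture or day. Deviations of same-numbered DNMT KO and DNMT WT libraries from their group means correlated at -0.013, -0.035 and 0.013. Such values show no shared shift, but they cannot tell whether the libraries were paired. The fit with the replicate block gave 1689 and 1049 calls. Among the genes named by the rule, Zscan4c, Usp17lc, Grb10, Ldb3, Notch2, Stra8, H2-Q10, Trp73, Cdkn2c, Pfkp, mt-Atp6 and Pcdhgc4 lost their call under at least 1 alternative, and the cause was not tested. Lin28a, chosen after its values were seen, also lost its call, as given above.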

Other observations

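Other genes of the lists add values that no comparison above describes, and they were chosen after their values were seen. For the lists below, the shares of all genes are 11.1% higher and 6.88% lower. Basement membrane and parietal endoderm genes moved both ways, with 3 of 15 tested higher (20%) and 4 lower (26.7%). Lama1, a laminin chain, averaged 10.2 ± 1.23 RPKM in DNMT KO and 2.73 ± 0.0418 in DNMT WT, and Vim, the filament protein vimentin, 30.8 ± 1.62 RPKM in DNMT KO and 122 ± 2.00 in DNMT WT. Of 12 smooth muscle genes, 1 was higher (8.33%) and 3 were lower (25%), with Tagln, an actin-binding protein, at 19.4 ± 1.16 RPKM in DNMT KO and 5.47 ± 0.410 in DNMT WT. Of 12 tested clustered protocadherins, neuronal adhesion genes, 0 were higher and 2 lower (16.7%) in the limma fit. Of 11 surface ectoderm and neural crest genes, 4 were higher and 4 lower (36.4% each).

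Xist, the RNA that coats an inactive X chromosome and not a list member, had 0.820, 0.619 and 0.777 RPKM in the DNMT KO libraries and 0.00447, 0.0215 and 0.00991 RPKM in the DNMT WT libraries (log2 change 1.27, adjusted p = 4.98e-08, limma). At EB D8 it averaged 2.61 RPKM in DNMT KO and 0.00447 RPKM in DNMT WT. Both lines express Y-linked genes, at a lower level in DNMT KO.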
